A study of Mus musculus with 24 samples.

Results

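Noncoding RNA genes formed a set of 642 counted regions, each the best-counted entry of a gene symbol that was annotated only with noncoding transcripts (RefSeq accessions of the NR_ and XR_ classes). They were drawn from 91830 entries under 26995 symbols. Of these symbols, 6917 had noncoding entries alone, and the 642 were those whose entry reached a mean of at least 10 raw reads over 24 libraries. Members were thus chosen by annotation and by their mean of total reads over all libraries, so the abundance of the set is a description and no result. Just outside the minimum lay Gm15506 and Stamos with a mean of 9.917 reads, and just inside it lay LOC108167982 with 10.0 and Pdxk-ps with 10.042 reads. A gene read in only 1 condition could pass the minimum through that condition. Of the members, 299 had curated (NR_) and 343 predicted (XR_) transcripts.

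The libraries came from 3T3-L1 cells, a mouse embryonic fibroblast line that turns into fat cells under a hormone cocktail. Cells were taken at the pre-adipocyte stage 2 days before induction (day −2) and at days 1, 3 and 7 after induction, at which clonal expansion gives way to mature adipocytes. The labels name no transgene or mutation, and induced cultures all received dexamethasone, 3-isobutyl-1-methylxanthine and insulin, with insulin alone kept from day 3. Control cultures received the solvent DMSO and the others 0.5 µM ML-792, an inhibitor of the enzyme that activates SUMO, a small protein that is attached to many nuclear proteins. All cultures were labelled with 100 µM 4-thiouridine for 45 min before harvest. Each of the 8 conditions had 3 libraries with the replicate letters A, B and C, described in the study's methods as biological replicates of this 1 cell line. How long the day −2 cells had been exposed to ML-792 is not given in the sources used here.

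Each library gave 2 counts per entry. Total reads stand for all RNA of the gene, and labelled reads are those with at least 1 T-to-C conversion, which marks RNA made during the 4-thiouridine pulse. Library totals ran from 13554718 to 27013352 reads. Labelled reads made up 2.71 to 3.67% of all reads at day −2 and 0.786 to 1.36% at the later days. All counts below are scaled to a common library size, and values of 3 libraries are given in the order of replicates A, B and C. Summed markers of mature fat cells had a mean of 22460 normalized reads in DMSO day −2 cells and 661400 at day 7, and those of pre-adipocytes 67710 and 4569. The macrophage marker sum was 39.2 to 118 with Ptprc at 0 in every library, and in the muscle sum of 10.6 to 360 nearly all reads were Des, with means of Myod1 and Myog at 0 in every DMSO condition and at most 1.22 under ML-792. Since cultures were read in bulk, a change in the share of cells that express a gene and a change in RNA per cell cannot be told apart.

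Noncoding RNAs act as RNA. Long noncoding RNAs (lncRNAs) can scaffold nuclear bodies, act on neighbouring genes or carry microRNAs within their sequence. Small nucleolar RNAs (snoRNAs) guide the chemical modification of ribosomal RNA, by pseudouridylation for the H/ACA class (Snora) and by methylation for the C/D class (Snord), and small Cajal body RNAs (scaRNAs, Scarna) do so for spliceosomal RNAs. Most mammalian snoRNAs are released from introns of host genes. RefSeq (GRCm38.p6, the patched form of mm10) gave a gene type for 557 of the 642 members, 511 matched by symbol and 46 by transcript. The types were 419 lncRNAs, 53 transcribed pseudogenes, 18 pseudogenes, 22 snoRNAs, 4 guide RNAs (the scaRNAs), 14 microRNA precursors and 27 genes of other types. Of these 27, RefSeq types 10 as protein-coding, although the tables hold only noncoding transcripts of them. The other 85 were not matched. All 52442 noncoding entries of the tables lay on the minus strand, against 19527 minus and 19861 plus entries of coding transcripts, so noncoding genes of the plus strand were not analysed here.

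The entries had a median length of 975.5 bases (39 to 83437) and a median of 33.4 reads per library (quartiles 17.4 and 85.4). In 389 cases the entry was the last exon of its transcript. No protein-coding gene lay over 379 members, 74 sat in an intron and 44 in an exon of a coding gene on the same strand, and 61 and 84 lay opposite an intron or an exon. Another gene's counted entry overlapped 46 members, 26 of them on the same strand where reads cannot be assigned to one gene with certainty. A further 28 began within 5000 bases downstream of a coding gene on their strand.

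The last 50 bases of an entry were searched on its own strand for the polyadenylation hexamers AATAAA and, where that was absent, ATTAAA, because the libraries were primed with oligo(dT) and so read the ends of RNAs that carry or contain a run of A. AATAAA was found in 265 members (41.3%), ATTAAA in 61 (9.5%) and neither in 316 (49.2%). Among genes with a coding entry the shares were 65.5%, 15.1% and 19.4%. None of the 22 snoRNA and 14 microRNA entries held either hexamer. A run of 10 A stood within the entry of 21.8% of members against 16.7% of coding genes. The windows of members on which the results turn are shown as the last 50 bases of the entry and the 10 bases after it, 5′ to 3′ on the minus strand of GRCm38.p6 (RefSeq), with the hexamer in capitals. They are chr19:5795680-5795739 for Malat1, chr19:5824698-5824757 for Neat1, chr7:142575520-142575579 for H19, chr8:108553242-108553301 for Lncbate1, chr13:44472407-44472466 for Gm34084, chr6:133765260-133765319 for Gm5886, chr13:33562476-33562535 for Gm6093, chr4:132352312-132352371 for Snora73b, chr4:132352765-132352824 for Snora73a and chr14:50807437-50807496 for Rpph1.
Malat1: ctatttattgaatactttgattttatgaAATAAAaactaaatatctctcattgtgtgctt
Neat1: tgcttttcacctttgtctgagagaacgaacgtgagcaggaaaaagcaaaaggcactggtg
H19: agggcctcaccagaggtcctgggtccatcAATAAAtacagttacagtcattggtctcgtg
Lncbate1: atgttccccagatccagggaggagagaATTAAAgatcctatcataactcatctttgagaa
Gm34084: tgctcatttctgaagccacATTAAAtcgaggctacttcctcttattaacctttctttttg
Gm5886: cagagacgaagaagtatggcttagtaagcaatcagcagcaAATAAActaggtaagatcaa
Gm6093: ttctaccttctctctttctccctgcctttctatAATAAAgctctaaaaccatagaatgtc
Snora73b: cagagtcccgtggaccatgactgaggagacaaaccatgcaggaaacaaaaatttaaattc
Snora73a: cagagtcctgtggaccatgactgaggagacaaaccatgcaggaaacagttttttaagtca
Rpph1: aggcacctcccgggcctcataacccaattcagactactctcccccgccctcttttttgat
Neat1, both Snora73 copies and Rpph1 lack both hexamers in this window, and the other 6 carry one. No match says only that these letters are not in the window.

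Several members carry microRNAs. Mature sequences were shown where the gene that contains them changed or is named below, with the seed (bases 2 to 8) in capitals (RefSeq, GRCm38.p6, minus strand). C430049B03Rik (chrX:53053112-53055490) holds miR-322-5p at chrX:53054306-53054327, miR-503-5p at chrX:53054027-53054049 and miR-351-5p at chrX:53053315-53053338 inside the counted entry. LOC106557447 (chr4:88909854-88910710) holds miR-31-5p at chr4:88910614-88910635, and E130102H24Rik holds miR-101a-3p at chr4:101346957-101346977. In Dleu2 and H19 the microRNA lies in the gene but outside the counted entry, at chr14:61631936-61631957 for miR-16-5p, chr14:61632075-61632096 for miR-15a-5p and chr7:142577112-142577133 for miR-675-5p.
miR-322-5p: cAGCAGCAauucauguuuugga
miR-16-5p: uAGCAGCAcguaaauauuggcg
miR-15a-5p: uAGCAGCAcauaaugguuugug
miR-503-5p: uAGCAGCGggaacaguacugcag
miR-351-5p: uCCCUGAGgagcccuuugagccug
miR-31-5p: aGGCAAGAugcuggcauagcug
miR-101a-3p: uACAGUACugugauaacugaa
miR-675-5p: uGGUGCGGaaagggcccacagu
The first 3 share the seed AGCAGCA, although C430049B03Rik and Dleu2 lie on different chromosomes. Reads of these genes count the longer transcript and not the mature microRNA.

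Members took 2.43% of reads when 1 entry was counted per symbol, and 62.1% of their reads came from Malat1, a nuclear lncRNA of speckles (chr19:5795690-5802671). Without it the share was 0.923%. The 5 members with the highest mean were Malat1 (187742 reads per library), Neat1 (9588), Gm9794 (7406), Rplp2-ps1 (5206) and Snhg8 (4721). Per kilobase of entry these came to 26889, 462, 14694, 6257 and 6015 reads, lowest for Neat1, the RNA scaffold of paraspeckles. Its entry is the longest of the 5 (20771 bases). Since the libraries read the ends of RNAs, reads need not scale with entry length, and the values per kilobase do not rank the 5 by abundance. Malat1 had 231100, 332200 and 103200 normalized total reads in DMSO at day −2 and 242800, 280600 and 107900 at day 7. Its count was lowest in replicate C in all 8 conditions, and no comparison of its total reads passed the test. With Malat1 included, the share of reads that fell on members followed the same letters, from 1.44 to 1.74% in replicate C, 1.86 to 2.68% in A and 2.09 to 4.38% in B. Without Malat1, normalized reads summed over members were 100300, 98010 and 93050 in DMSO at day −2 and 96570, 120600 and 86920 at day 7. The letters thus lay closer together without it. Most members were far less abundant: 196 had a mean under 20 reads, 304 from 20 to under 100, 114 from 100 to under 1000 and 28 had 1000 or more.

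Across the DMSO time course, the shares of noncoding genes called were near those of all genes for rises and below them for falls, in a set with mostly few reads. A call needed an adjusted p under 0.01 from edgeR's quasi-likelihood test over all entries, with day −2 as the base that all 3 days share. At day 1, 40 members were higher and 17 lower (6.23% and 2.65%), where 6.99% and 9.86% of 13331 genes were. Day 3 had 112 higher and 53 lower (17.4% and 8.26%, against 16.6% and 19.4%). Day 7 had 110 higher and 57 lower (17.1% and 8.88%, against 18.9% and 19.4%). Among the 142 members with a mean of at least 100 reads the counts were 16 and 9 (11.3% and 6.34%), 31 and 18 (21.8% and 12.7%), and 30 and 20 (21.1% and 14.1%). In these better-read members the shares of rises lay above those of all genes, and the shares of falls lay below but closer to them. The shares of all genes had no such minimum of reads, so the 2 sets are not alike in depth. The part of read depth in these gaps was not tested. The median log2 difference from day −2 was 0.28, 0.36 and 0.17 over members and 0.004, 0.004 and −0.015 over all genes. These counts depend on single replicates. Refitted without all libraries of replicate A, B or C, the test called 7, 66 and 15 members at day 1 (57 with all libraries), 87, 169 and 100 at day 3 (165) and 81, 162 and 102 at day 7 (167). Of the members called with all libraries, 3, 69 and 70 were called in each of the 3 refits.

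**Figure D1:**
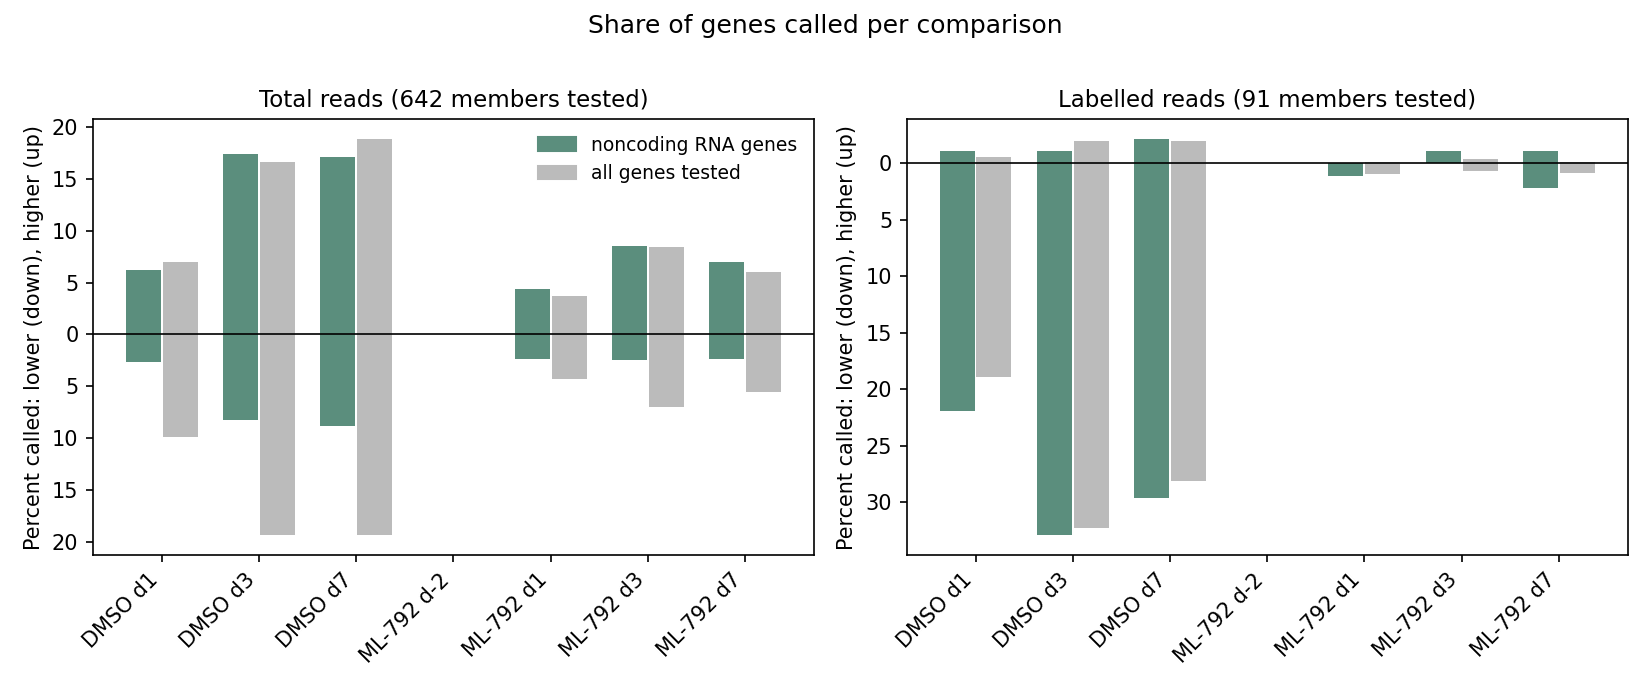
Percent of genes called in each comparison, higher above and lower below the zero line, for noncoding genes (green) and all genes (grey), with total reads of 642 members on one panel and labelled reads of 91 members on the other. Falls in total reads of the DMSO course were rarer among members (8.88% at day 7) than among all genes (19.4%). Of members with a mean of at least 100 reads 14.1% fell, a minimum not set for all genes. ML-792 gave no call at day −2.

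Over the 3 days, 236 members were called at any day (158 higher, 80 lower, 2 of them in both directions) and 406 at none. Higher at days 3 and 7 were 76, and lower at both were 33. At all 3 days 19 were higher and 8 lower, and 12 were higher at day 1 alone. By name, 26 of the 134 members with Rik symbols rose at day 3 and 12 fell, and 41 of 277 Gm genes rose and 19 fell. Of 53 transcribed pseudogenes 3 rose and 7 fell. Over all genes 16.6% rose and 19.4% fell at that day, and nothing particular to these name groups is read from the counts.

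The members with the largest rises by day 7 were unread or nearly so in pre-adipocytes. Lncbate1, a lncRNA known from brown fat (chr8:108553252-108553623, in an intron of Zfhx3 on the opposite strand), had 0 reads in all DMSO day −2 libraries, then 24.1, 13.9 and 33.6 normalized reads at day 3 and 183.9, 159.6 and 161 at day 7. Against a floor of 3 reads per library it was at least 64.7-fold higher at day 7 (adjusted p = 1.5e-07). Gm34084 (chr13:44472417-44472774) was likewise at 0 at day −2 and reached 112.8, 106.4 and 132.5 at day 7, at least 45.1-fold higher (adjusted p = 4e-07). For both genes the 3 day 7 libraries lay above all others of the course, which against day −2 was a condition of naming them. The calls held without any 1 replicate letter. 9030619P08Rik rose from 0 to 88, 89.7 and 59.4 (at least 30.4-fold, adjusted p = 1.6e-06), and Gm32800 from 0 to 32.7, 57.4 and 32 (at least 15.6-fold, adjusted p = 0.00015). Gm34159 (chr9:120349909-120351800, opposite an intron of Myrip) was read at every stage after induction, with 0.82, 0.89 and 0 at day −2, 12.9, 8.2 and 14 at day 1, 97.4, 98.5 and 74.1 at day 3 and 172.6, 151.2 and 147.3 at day 7 (adjusted p = 8.3e-09). Its day 1 call (adjusted p = 0.00014) was lost without replicate A (0.0145). Gm36301 (chr6:115505886-115506826) had 0, 2.68 and 0 at day −2 and 214.4, 290 and 221.6 at day 7 (adjusted p = 1.6e-07). No function is stated here for these numbered genes.

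**Figure D2:**
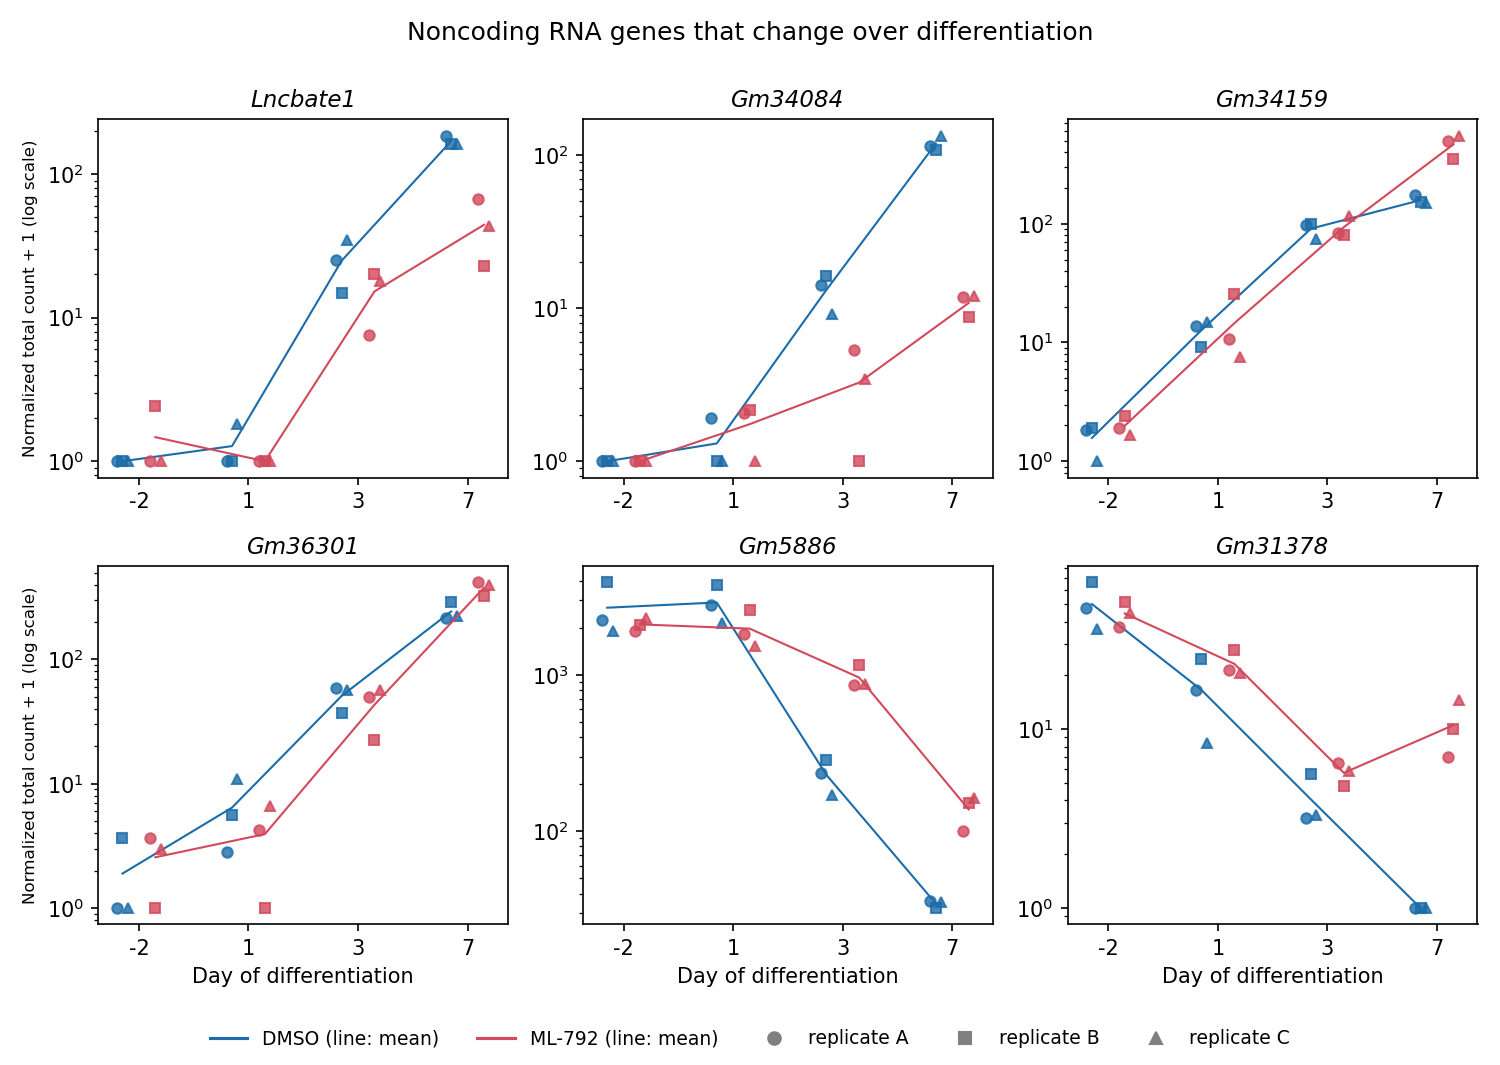
Normalized total count plus 1 (log axis) of Lncbate1, Gm34084, Gm34159, Gm36301, Gm5886 and Gm31378 against day, DMSO in blue and ML-792 in red, with circles, squares and triangles for replicates A, B and C and lines through the means. The panels of Lncbate1, Gm34084, Gm34159 and Gm36301 start near 0 at day −2 and rise, to 183.9, 159.6 and 161 for Lncbate1 in DMSO at day 7, while Gm5886 and Gm31378 fall, the latter to 0 in all 3 DMSO libraries.

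Other members were read at day −2 and rose gradually. 9630013D21Rik had 45, 81.4 and 32 at day −2 and 415.3, 392.2 and 335.8 at day 7, a log2 fold change of 2.85 ± 0.42 (SE, adjusted p = 4.3e-05). LOC102636700 had 30.3, 7.15 and 22.2, then 60.7, 62.8 and 99.8, then 166.3, 93.9 and 150.4, and finally 321.6, 380.7 and 335.8, each stage above the one before in every replicate. The day 7 log2 fold change came to 4.11 ± 0.41 (adjusted p = 7.8e-07), and both day 7 calls held without any letter. 5730408K05Rik (chr19:8888387-8888770) peaked in between, at 2151, 2357 and 2927 at day 3 from 522, 645.7 and 523.1, a log2 fold change of 2.14 ± 0.21 (adjusted p = 6.4e-07). By day 7 it stood at 688.3, 987.7 and 732.1, where it was not called (adjusted p = 0.0493).

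Among the members that fell, Gm5886, a transcribed pseudogene (chr6:133765270-133765696), went from 2247, 3893 and 1906 at day −2 to 234.2, 282.8 and 169 at day 3 and 35, 31.3 and 34.3 at day 7. The day 7 difference from day −2 was −6.32 ± 0.35 on the log2 scale (adjusted p = 1.5e-09). Day −2, 3 and 7 libraries did not overlap, which between days −2 and 7 was a condition of naming the gene. Gm31378 (chr10:38115970-38116347) fell from 46.6, 65.3 and 35.5 to 0 in every day 7 library, at least 14.8-fold lower (adjusted p = 1.7e-05). Mx1, the interferon-induced GTPase gene that is defective in most inbred mouse strains and so annotated as noncoding (chr16:97447035-97448372), had 57.3, 44.7 and 126.1 at day −2 and 0 in all day 3 libraries, at least 22.3-fold lower (adjusted p = 0.00013). These 3 calls held without any letter, whereas the fall of Mx1 at day 1 (0, 0 and 3.3, adjusted p = 0.00067) was lost without replicate A (0.0207). Gm30178 dropped from 56.5, 59 and 56.8 to 0, 3.13 and 1.14 at day 7 (adjusted p = 0.00044), a call lost without A (0.0103). Gm15698 went from 81, 78.7 and 89.7 to 1.09, 0 and 0 at day 3 (adjusted p = 4.7e-06). LOC108169181 (chr6:112717971-112719510) fell from 974.4, 702.9 and 1081 to 32.8, 15.1 and 53.2 at day 3, a log2 fold change of −4.76 ± 0.40 (adjusted p = 1.3e-07). It lies in an exon of Srgap3 on the same strand, so its reads cannot be told apart from those of that gene. Srgap3 was itself lower at day 1 with a log2 fold change of −2.11. At the same day LOC108169181 had −2.12, a call lost without A.

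The small nuclear and nucleolar RNA loci rose together at day 3. Of 30 such loci, 20 were higher at day 3 and none lower, where 16.6% of all genes were higher and 19.4% lower. Their median log2 difference was 3.30, against 0.004 over all genes. At day 1, 2 were higher and at day 7, 13, with medians of 0.58 and 1.61 and none lower at either. Over all genes 6.99% and 18.9% were higher and 9.86% and 19.4% lower. The day 1 count of rises is near that share. Of the 20 calls at day 3, 17, 19 and 16 held without replicate A, B and C and 15 under each, and of the 13 at day 7, 10 held under each. Reads summed over the 26 snoRNA and scaRNA loci were 1791, 2105 and 2677 in DMSO at day −2, 3808, 2625 and 3724 at day 1, 6722, 5487 and 9633 at day 3 and 4784, 3616 and 4381 at day 7. All day 3 sums exceeded those of the other days. Snord13 and Snord89, with 993.3 and 828.1 mean reads, held most of the day −2 sum, and neither was called at day 3. For oligo(dT)-primed libraries these are unusual templates, since snoRNAs carry no poly(A) tail, and which RNA molecules gave the reads was not tested.

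**Figure D3:**
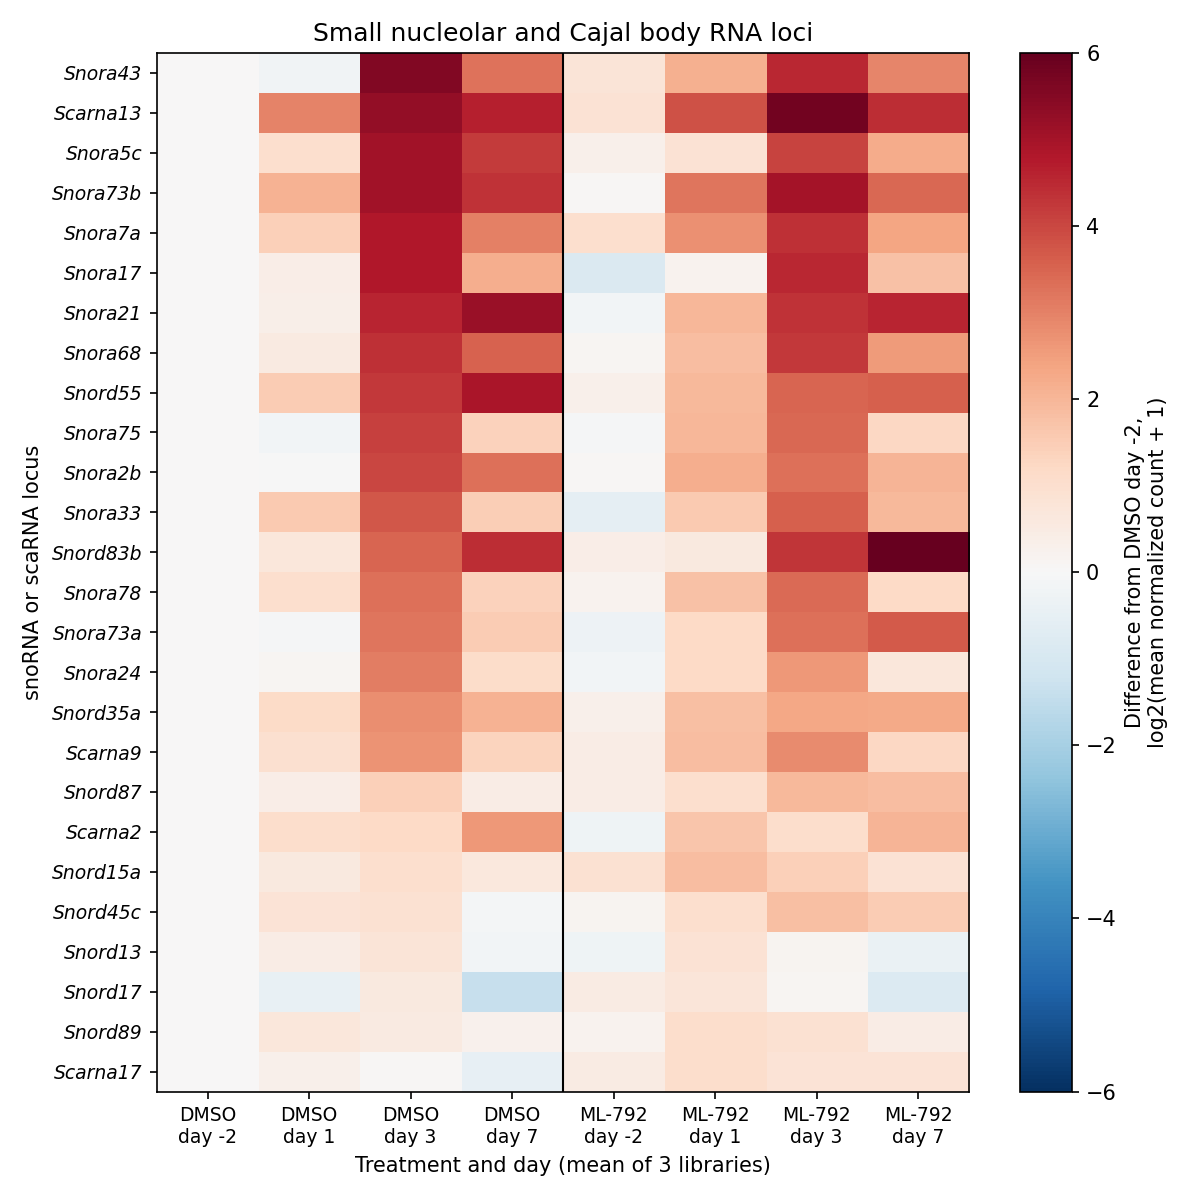
Heat map of 26 snoRNA and scaRNA loci (rows) by condition (columns), coloured by the difference of log2(mean normalized total count + 1) from DMSO day −2. Most H/ACA rows are darkest at day 3 under both treatments, Snora21, Snord55 and Snord83b stay high at day 7, and Snord83b is highest in ML-792 at day 7.

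Snora73b (chr4:132352322-132352526) was the best read of the loci that rose, with 27.8, 42 and 46.2 reads at day −2, 185.7, 141.2 and 169.9 at day 1, 1391, 904.1 and 1642 at day 3 and 891.4, 654 and 832.6 at day 7. Its log2 fold changes were 2.10 ± 0.26, 5.08 ± 0.28 and 4.36, the day 3 value with an adjusted p of 1.9e-09, and all 3 held without any letter. Snora68 reached 548.2, 751.1 and 841.3 at day 3, a log2 fold change of 4.44 ± 0.34 (adjusted p = 5.7e-08). Most H/ACA loci peaked at day 3 and then receded: Snora17 had 6.54, 7.15 and 7.11 reads at day −2, 256.1, 179.7 and 223.3 at day 3 (log2 fold change 4.96 ± 0.39, adjusted p = 6.1e-08) and 36.1, 27.1 and 41.1 at day 7. Snora75 went from 10.6, 34 and 9.77 to 384.1, 285.1 and 321.7 at day 3 (4.19 ± 0.47, adjusted p = 3.2e-06) and was back at 63.2, 39.6 and 43.4 at day 7, where it was not called. A smaller group went on rising. Snora21 had 1.64, 8.94 and 5.33 reads at day −2, 136.8, 126.3 and 177.1 at day 3 and 242.6, 219 and 223.9 at day 7 (log2 fold changes 4.78 and 5.42, adjusted p = 7.5e-06 and 1.8e-06). Snord55 had 75.5, 71.9 and 92.6 at day 3 and 104.9, 154.4 and 118.8 at day 7, from 0, 3.58 and 6.22. Scarna13 rose from 1.64, 0 and 4.44 to 100.7, 90.4 and 155.1 at day 3 (5.75 ± 0.58, adjusted p = 9.8e-07). Snora73a, the near copy of Snora73b shown above, was less read, at 42.7, 41.7 and 77.5 at day 3 (adjusted p = 0.001003, lost without A at 0.0257), and its reads may be split between the copies.

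The host genes given here changed less. Snora75 lies in an intron of Ncl (log2 fold change at day 3 0.32), Snora21 of Rpl23 (0.50), Snora7a of Rpl32 (0.34), Snora33 of Rps12 (0.34), Snora2b of Kansl2 (0.08) and Scarna9 of Cep295 (−0.30), and none of these hosts was called. Called were Tbrg4, host of Snora5c (1.46), and Rpl13a, host of Snord35a (0.78), with log2 fold changes below those of the snoRNAs (6.19 and 3.12). Snord35a was lost without any 1 letter. Over all 74 members in same-strand introns, 17 that were called at day 3 had a tested host, and 7 of these hosts were called in the same direction, 10 were not called and none went the other way. Of the proteins that bind snoRNAs or modify RNA with them (the snoRNP core), 11 of 12 were tested, and their total reads were higher for 3, 5 and 2 of them over the 3 days, with none lower. Over all genes 6.99%, 16.6% and 18.9% were higher and 9.86%, 19.4% and 19.4% lower. In labelled reads 0, 0 and 1 of 6 were lower, beside 18.9%, 32.3% and 28.1% of all genes. Of 26 nuclear RNA decay factors, 2, 6 and 2 were higher at days 1, 3 and 7 and 0, 0 and 1 lower in total reads, beside the 16.6% and 19.4% of all genes at day 3. In labelled reads 2, 4 and 5 of 19 were lower and none higher, beside the 18.9%, 32.3% and 28.1% of all genes that were lower.

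Rpph1 and Rn7sk, RNAs of other protein complexes, also rose at day 3. Rpph1, the RNA of RNase P (chr14:50807447-50807771), had 5.73, 1.79 and 15.1 reads at day −2, 31.3, 10.9 and 42.9 at day 1, 314, 282.8 and 482.6 at day 3 and 119.6, 121 and 100.5 at day 7. Its day 3 log2 fold change was 5.56 ± 0.56 (adjusted p = 9.5e-07), held without any letter. Rn7sk, the 7SK RNA that holds the elongation factor P-TEFb, rose from 54.8, 106.4 and 67.5 to 197, 303.7 and 391.1 (1.96 ± 0.35, adjusted p = 0.00028, lost without C at 0.0213). Rmrp, the related RNA of RNase MRP, had 51.4, 19.7 and 69.4 reads at day 3, and its log2 difference of 1.94 was not called (adjusted p = 0.0151). Not called at day 3 were also Snord13, Snord89, Snord15a, Snord17, Snord45c, Scarna2, Scarna17, Rnu11, Rny1 and Rn7s2.

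The snoRNA host genes that are themselves noncoding moved in both directions. Of 12 entries listed as hosts, 2 rose at day 1, 4 rose and 1 fell at day 3, and 2 rose and 4 fell at day 7. Over all genes 6.99%, 16.6% and 18.9% were higher and 9.86%, 19.4% and 19.4% lower. Nothing particular to hosts is read from these counts. Of the calls of listed hosts 0 of 2, 2 of 5 and 4 of 6 held without any letter. The list included Snora7a, the snoRNA in an intron of Rpl32 that was counted above and is not itself a host. Snora7a made 1 of the rises at day 3 (4.97) and 1 at day 7 (3.16), both held without any letter. The rises of Snhg3, Snhg5 and Snhg9 at day 3 and of Snhg3 at day 7 were lost without A and without C. Snhg5 rose at day 1 from 847.6, 913.1 and 928.1 to 2031, 1838 and 1979 (1.12 ± 0.15, adjusted p = 4.8e-05, lost without A at 0.0252). Snhg3, whose introns hold both Snora73 copies, went from 782.2, 678.8 and 770.9 to 1754, 1433 and 1615 at day 1 (1.10 ± 0.18, adjusted p = 0.00033, lost without A at 0.0285 and C at 0.0168). Log2 fold changes of Snora73b were larger on the same days, 2.10 at day 1 and 5.08 at day 3, where that of Snhg3 was 0.92. In contrast, Snhg18 fell from 3129, 2543 and 2797 to 801, 799.8 and 822.8 at day 3 (−1.80 ± 0.17, adjusted p = 6.6e-07) and stayed low at day 7 (−1.40, adjusted p = 7.3e-06). Snhg8 was 4026, 4955 and 3461 at day −2 and 2039, 1417 and 1709 at day 7 (−1.27 ± 0.22, adjusted p = 0.00019). The falls of Snhg18 and Snhg8 held without any letter.

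Among imprinted genes, H19, the maternally expressed lncRNA (chr7:142575530-142576114), peaked at day 1. It had 1175, 333.6 and 1488 reads at day −2, 15310, 4903 and 17410 at day 1, 4550, 1349 and 6574 at day 3 and 209.9, 119.9 and 362.1 at day 7. Replicate B was lowest at every DMSO stage, and within each replicate the day 1 value was the highest and the day 7 value the lowest. The day 1 rise had a log2 fold change of 3.65 ± 0.66 (adjusted p = 0.00084, lost without A at 0.0342), while the differences of 2.06 at day 3 and −2.12 at day 7 were not called (adjusted p = 0.0140 and 0.0127). Peg13, expressed from the paternal copy within an intron of Trappc9 (chr15:72805604-72810324), dipped and came back, with 504.8, 381 and 619.9 at day −2, 288.7, 231.4 and 230.9 at day 1, 136.8, 96.2 and 147 at day 3 and 521.3, 488.1 and 506 at day 7. The day 3 value was −1.99 ± 0.23 (adjusted p = 4.5e-06) and held without any letter, whereas the day 1 call (−1.003 ± 0.221, adjusted p = 0.003679) was lost without A (0.0754) and C (0.116). Of the other imprinted lncRNAs read here, Kcnq1ot1, Nespas and Snhg14 were called at no day. Ftx, from the X-inactivation centre, fell from 81.8, 89.4 and 107.5 to 38.3, 23.2 and 33.6 at day 3 (−1.55 ± 0.36, adjusted p = 0.002491, lost without A at 0.0263 and C at 0.0353).

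The genes that carry microRNAs of the shared seed had different courses. C430049B03Rik rose from 1573, 2046 and 1631 to 3803, 4195 and 3472 at day 1 (1.13 ± 0.18, adjusted p = 0.00025, lost without A at 0.0362 and C at 0.0137) and fell to 586.5, 743 and 613.3 at day 3 (−1.43, adjusted p = 1e-05) and 420.9, 568.4 and 454.6 at day 7 (−1.86, adjusted p = 6.4e-07), both held without any letter. Dleu2, a gene of the chromosome 14 tumour-suppressor region (counted entry chr14:61602836-61603806), stood at 99.8, 146.7 and 87 at day −2 and 91, 140.3 and 87.4 at day 1, dipped to 35, 22 and 31.2 at day 3 (−1.91 ± 0.33, adjusted p = 0.00025, held without any letter) and was at 154.6, 200.3 and 123.4 at day 7. LOC106557447, which holds miR-31, was lower at day 3 with 54.7, 81.1 and 23.1 against 175.1, 231.6 and 146.5 (−1.80 ± 0.35, adjusted p = 0.00072), a call lost without A (0.0242). Carmn, the host of the miR-143 and miR-145 pair known from smooth muscle, fell at day 7 to 173.8, 135.6 and 171.3 from 785.4, 429.3 and 1019 (−2.22 ± 0.35, adjusted p = 8.4e-05, held without any letter). Of 12 proteins of microRNA processing tested in total reads, none was called at any day, where 6.99%, 16.6% and 18.9% of all genes were higher and 9.86%, 19.4% and 19.4% lower. In labelled reads 1, 2 and 2 of 6 were lower at days 1, 3 and 7, beside 18.9%, 32.3% and 28.1% of all genes. E130102H24Rik, C430049B03Rik, LOC106557447, 5730408K05Rik and Scarna13 are described because their entries contain another gene's mature microRNA.

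ML-792 changed fewer members, more of them upward. A call here needed an adjusted p under 0.1 against DMSO of the same day in a fit of all 24 libraries. At day −2 no member was called in either direction, nor were 0.0% and 0.0% of all genes (edgeR), with 17 members at an unadjusted p under 0.05 by edgeR and 23 by DESeq2, which made 0 calls too. At day 1, 28 members were higher and 15 lower (4.36% and 2.34%, against 3.72% and 4.31% of all genes). Day 3 had 55 higher and 16 lower (8.57% and 2.49%, against 8.42% and 6.97%), and day 7 had 45 and 15 (7.01% and 2.34%, against 6.03% and 5.58%). Refits without replicate A, B or C called 12, 38 and 18 members at day 1 (43 with all libraries), 29, 88 and 28 at day 3 (71) and 13, 84 and 11 at day 7 (60), and 7, 12 and 6 of the members called with all libraries held under each. Over the days 92 members were higher at any day, 29 of them at 2 or more and 7 at all 3, while 39 were lower at any day, 6 of them at 2 or more and 1 at all 3. Of the 128 called for ML-792, 74 were also called in the DMSO course, which shares the DMSO libraries.

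Gm6093 (chr13:33562486-33564403), a gene with no function stated here, had the largest rise at days 1 and 3 among called members without overlap of the groups. Downward, Gm11627 had a larger fitted log2 fold change at day 3 (−6.22, lost without A and without B). It had 0 reads in all ML-792 libraries and a mean of 9.23 in DMSO, at least 2.58-fold lower. For Gm6093 the values were as follows. In DMSO Gm6093 had 16.6, 4.55 and 20.6 reads at day 1, and under ML-792 857.9, 386.2 and 832.6, a log2 fold change of 5.62 ± 0.52 (adjusted p = 1.5e-07). At day 3 the values were 1.09, 2.32 and 4.63 in DMSO and 194.6, 74.7 and 138.9 in ML-792 (5.62 ± 0.64, adjusted p = 1.1e-06). All ML-792 libraries after induction lay above all DMSO libraries of their day, which was a condition of naming the gene. Both calls held without any letter. At day −2 it was near 0 under both treatments. Its day 7 difference, 29.8, 9.01 and 30.1 against 2.26, 4.17 and 0 (3.31 ± 0.73, adjusted p = 0.004999), was lost without A (0.183) and C (0.204).

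Neat1 (chr19:5824708-5845478) was higher under ML-792 during clonal expansion. It had 15360, 15920 and 15620 reads at day 1 against 6042, 4359 and 5867 in DMSO (1.53 ± 0.19, adjusted p = 1.1e-05), and 12470, 12310 and 12970 at day 3 against 6925, 6537 and 4814 (1.05 ± 0.19, adjusted p = 0.00052). At day 7 the groups overlapped, with 10910, 13080 and 11150 against 10160, 14250 and 8196 (0.11, adjusted p = 0.843). Both calls held without any letter. Malat1, its neighbour on the chromosome, was not called. Of 20 tested paraspeckle proteins, which assemble on Neat1, none was called for ML-792 at day 1, 1 was higher at day 3 and 2 were lower at day 7. Over all genes 3.72% were higher and 4.31% lower at day 1, 8.42% higher at day 3 and 5.58% lower at day 7.

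**Figure D4:**
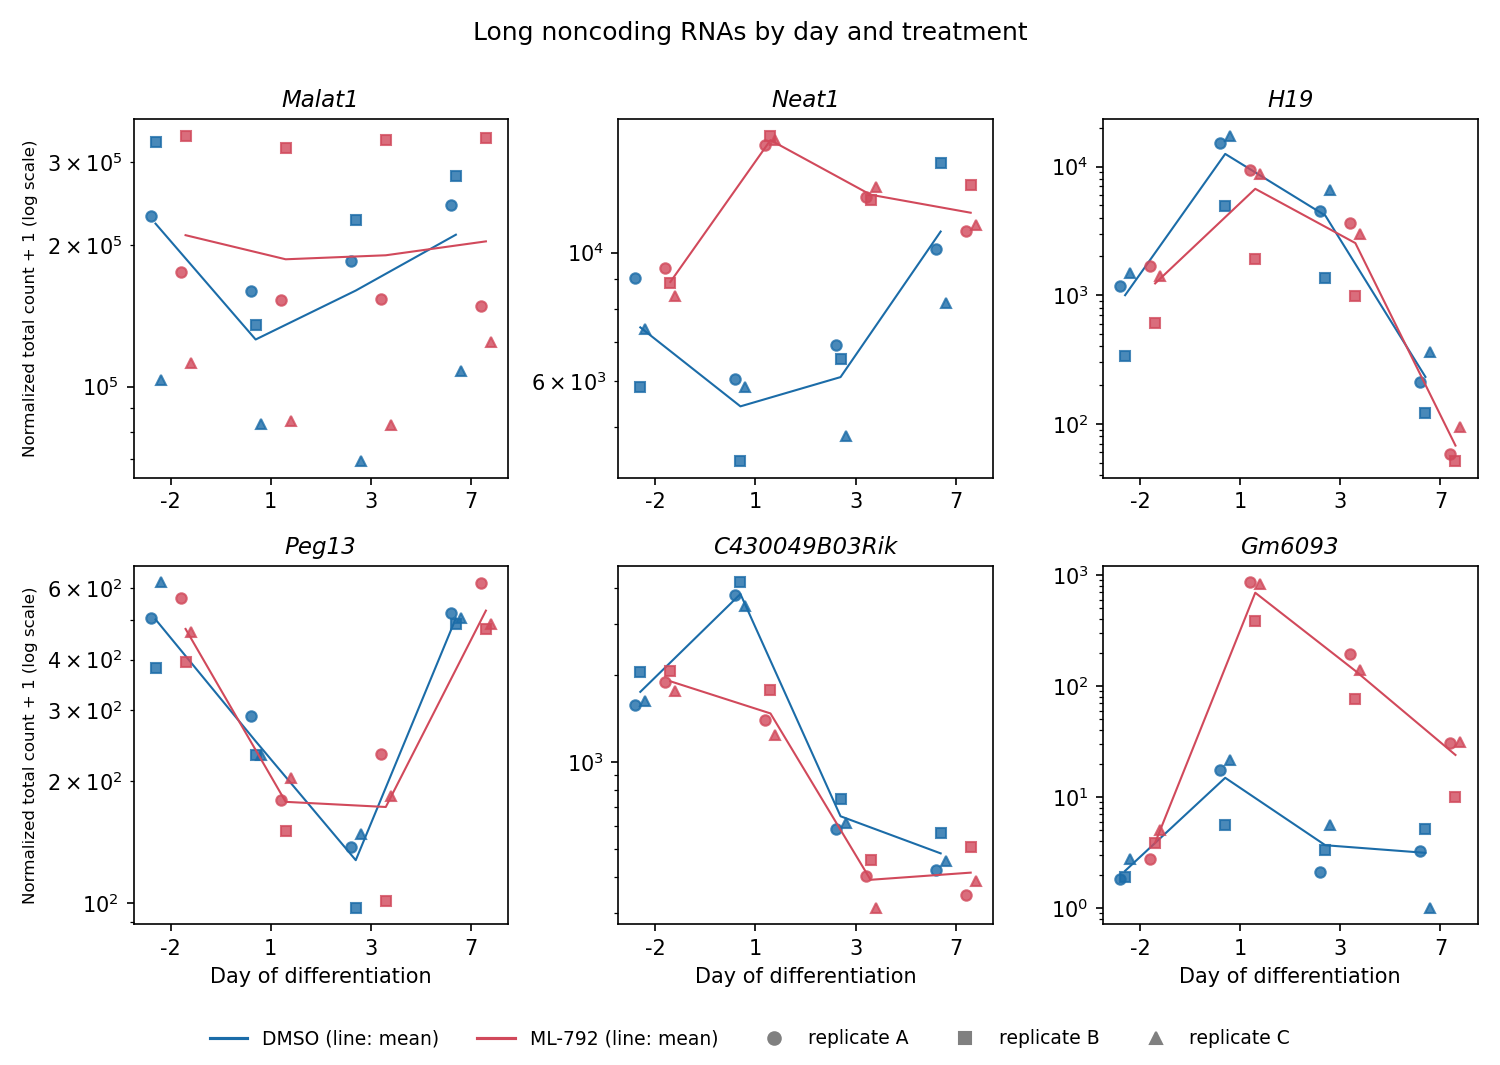
Normalized total count plus 1 (log axis) of Malat1, Neat1, H19, Peg13, C430049B03Rik and Gm6093 against day, DMSO in blue and ML-792 in red, with circles, squares and triangles for replicates A, B and C and lines through the means. Gm6093 shows the widest gap between treatments (857.9, 386.2 and 832.6 against 16.6, 4.55 and 20.6 at day 1), and Malat1 shows a spread between replicates and no gap between treatments.

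Several members that fell during differentiation were higher under ML-792 at day 3. The DMSO libraries of a day enter both comparisons, so the fall and the ML-792 difference of a gene are not independent. Gm5886 had 853.3, 1154 and 869.9 reads at day 3 against 234.2, 282.8 and 169 (2.07 ± 0.27, adjusted p = 9.2e-06) and 98.9, 150.5 and 161.2 at day 7 against 35, 31.3 and 34.3 (2.02 ± 0.31, adjusted p = 0.00013). Dleu2 was 150, 188.7 and 148.6 at day 3, above the DMSO values of 35, 22 and 31.2 (2.46 ± 0.30, adjusted p = 3.4e-06), and near DMSO at day 7. E130102H24Rik had 109.8, 186.2 and 69.5 against 21.9, 24.3 and 20.8 (2.44 ± 0.46, adjusted p = 0.0007). These calls held without any letter. Gm31378 was still read at day 7 under ML-792, at 5.96, 9.01 and 13.7 where all DMSO libraries were at 0, at least 2.88-fold higher (adjusted p = 0.00033). Ttc39aos1 had 17.4, 29.1 and 11 at day 3 against 2.19, 4.64 and 1.16 (2.79, adjusted p = 0.0119, lost without A at 0.135 and C at 0.1). Ftx was 1.01 ± 0.30 higher on the log2 scale at day 3 (adjusted p = 0.0303), a call lost without any 1 of the letters (0.246, 0.178 and 0.123 for A, B and C). The summed pre-adipocyte markers had a mean of 10570 at day 3 under ML-792 and 5554 in DMSO, but single markers went both ways. Means of Ly6a, Pdgfra and Thy1 were higher under ML-792, and those of Dlk1 and Pdgfrb were lower. The part of these markers in the values above was not tested.

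Members that rise with maturation split, and here too the DMSO libraries of a day enter both comparisons. Gm34084 was 10.7, 7.72 and 10.9 at day 7 against 112.8, 106.4 and 132.5 in DMSO (−3.57 ± 0.61, adjusted p = 0.00075), which held without any letter. Lncbate1 was 65.5, 21.9 and 42.3 against 183.9, 159.6 and 161 (−1.95 ± 0.51, adjusted p = 0.0224), which was lost without A (0.147) and C (0.235). LOC108167447 was 3.57, 5.15 and 0 against 54.2, 25 and 50.3 (−3.81 ± 0.86, adjusted p = 0.005787, lost without A at 0.164 and C at 0.186). On the other side, Gm34159 was 493.2, 350 and 551.8 against 172.6, 151.2 and 147.3 (1.56 ± 0.30, adjusted p = 0.001419, lost without A at 0.126), and 5730408K05Rik was 1932, 2281 and 1825 against 688.3, 987.7 and 732.1 (1.33 ± 0.18, adjusted p = 2.8e-05, held without any letter). Gm39393 (chr11:102049346-102049968, opposite an intron of Cd300lg) appeared earlier: it had 19.6, 35.5 and 26.8 at day 3 against 0, 1.16 and 1.16 (adjusted p = 0.00068, held without any letter). Gm36301 did not pass the test at day 7, with 415.8, 320.4 and 393.3 against 214.4, 290 and 221.6. Meanwhile the summed markers of mature fat cells had a mean of 426200 at day 3 and 852700 at day 7 under ML-792, against 416700 and 661400. The near-equal day 3 sums hid opposite moves. Means of Fabp4 and Plin1 were higher under ML-792, those of Adipoq and Lpl lower and that of Cidec slightly lower. At day 7 Adipoq, Fabp4 and Plin1 were higher, while Lpl and Cidec were nearly equal between treatments.

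C430049B03Rik was lower under ML-792 at day 1, the stage of its peak in DMSO, and the DMSO day 1 libraries enter both comparisons. It had 1402, 1773 and 1244 reads against 3803, 4195 and 3472 in DMSO (−1.38 ± 0.18, adjusted p = 2e-05), held without any letter, and 402.2, 455.9 and 310.7 against 586.5, 743 and 613.3 at day 3 (−0.73, adjusted p = 0.0101, lost without A at 0.138 and C at 0.215). LOC102640468 (chrX:94771960-94775915) had 8.56, 14 and 5.59 against 70.8, 103.8 and 93.2 (−3.26 ± 0.56, adjusted p = 0.0005), a call that narrowly missed the threshold without C (0.101). LOC102636700 had 16.1, 11.6 and 10.3 against 60.7, 62.8 and 99.8 (−2.55 ± 0.49, adjusted p = 0.001838, lost without C at 0.208). In all 3 genes the ML-792 libraries lay below every DMSO library of day 1, which for LOC102640468 and LOC102636700 was a condition of naming them.

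The sum over the 26 snoRNA and scaRNA loci was already higher at day 1 under ML-792, which is given without a test. At day 1 the summed reads were 4262, 6310 and 4215 against 3808, 2625 and 3724 in DMSO, with no overlap, at day 3 6586, 8989 and 4971 against 6722, 5487 and 9633, and at day 7 4284, 4878 and 3143 against 4784, 3616 and 4381. Of the 30 small RNA loci, 6 were higher at day 1, none was called at day 3, and 4 were higher and 3 lower at day 7. The medians were 0.81, −0.15 and −0.16. Over all genes 3.72%, 8.42% and 6.03% were higher at the 3 days and 4.31%, 6.97% and 5.58% lower. Without A, B or C 1, 2 and 4 of the 6 calls at day 1 held, and 0, 6 and 1 of the 7 at day 7. Snora73b showed the turn: it was 389.4, 332.7 and 390.6 at day 1 against 185.7, 141.2 and 169.9 (1.16 ± 0.21, adjusted p = 0.001029, held without any letter) and 469.4, 377 and 448 at day 7 against 891.4, 654 and 832.6 (−0.88, adjusted p = 0.008616, lost without A at 0.181 and C at 0.166). Snord83b went the other way at day 7, with 623.1, 324.2 and 396.1 against 88, 166.9 and 156.5 (1.71 ± 0.38, adjusted p = 0.005136, lost without A at 0.384). Rpph1 was lower at day 3, at 106.5, 126.6 and 74.3 against 314, 282.8 and 482.6 (−1.81 ± 0.40, adjusted p = 0.00349, lost without A at 0.147). Among the noncoding hosts 4 were higher and 1 lower at day 3 and again at day 7. At each day 1 of the 5 calls held without any letter. Over all genes 8.42% were higher and 6.97% lower at day 3, and 6.03% and 5.58% at day 7. Snhg5 had 2372, 2308 and 2538 at day 7 against 1086, 1206 and 1099 (1.09 ± 0.13, adjusted p = 2.7e-06, held without any letter), and Snhg15 had 578.3, 744.7 and 539.7 at day 3 against 352.3, 319.9 and 270.8 (0.98 ± 0.19, adjusted p = 0.00097, held without any letter). Snhg18 was the host that was lower, at 584.8, 557.2 and 608 against 801, 799.8 and 822.8 at day 3 (−0.47, adjusted p = 0.0948, lost without A at 0.474 and C at 0.345).

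Whether the effect of ML-792 differed between days was tested by the interaction of day and treatment (adjusted p under 0.1), which called 43 members (6.70%) where 11.9% of all genes were called. Of the members with a mean of at least 100 reads, 16.2% were called, a minimum not set for the share of all genes. Refits without replicate A, B or C called 4, 56 and 11 members, and 3 of the 43, Dleu2 (adjusted p = 0.00012), Gm5886 (1.3e-05) and Snora73b (0.00052), held under each. For these 3 the values above show the course: Dleu2 differed between treatments at day 3 and not at day 7, Gm5886 at days 3 and 7, and Snora73b upward at day 1 and downward at day 7. Neat1 (0.002179) was called but lost without A (0.192).

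Labelled reads could be tested for 91 members, those with enough of them. Where they changed they were mostly lower, as over all genes. In DMSO 1 member was higher and 20 were lower at day 1, where 0.56% and 18.9% of 6434 genes were. At day 3 the counts were 1 and 30 (1.99% and 32.3% of genes) and at day 7 2 and 27 (1.99% and 28.1%). Median log2 differences were −1.27, −1.81 and −1.76 over members and −1.20, −1.64 and −1.47 over all genes, on the scale of total reads. When labelled counts were scaled by each library's labelled reads in place of total reads, the medians of all genes were 0.06, −0.12 and −0.04 and those of members 0.03, −0.31 and −0.34, and members higher and lower numbered 2 and 2, 5 and 4, and 5 and 5. Directions of labelled reads are therefore given on the scale of total reads, with the other scale where it ends a call. Refits without replicate A, B or C called 9, 21 and 9 members at day 1 (21 with all libraries), 22, 29 and 15 at day 3 (31) and 15, 27 and 16 at day 7 (29). Of the members with fewer labelled reads, 6, 12 and 15 at days 1, 3 and 7 were also lower in total reads, and none was higher.

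Neat1 had 1247, 619.7 and 1023 labelled reads at day −2 and 172.9, 86.5 and 179.8 at day 1 (−2.72 ± 0.34, adjusted p = 1.1e-08), while its total reads were not called lower. This labelled call held without any letter and when scaled by labelled reads (0.00047). The later labelled calls of Neat1 were lost on that scale (0.0407 at day 3 and 0.901 at day 7). Malat1 had 2176, 3154 and 1179 labelled reads at day −2 and 608.7, 516.5 and 332.4 at day 1 (−2.16 ± 0.33, adjusted p = 1.5e-06), and its 3 calls were lost without B (0.0596, 0.0796 and 0.110) and when scaled by labelled reads (0.255, 0.944 and 0.825). Carmn fell from 153, 86.8 and 196.3 to 6.77, 8.34 and 25.1 at day 7 (−3.43 ± 0.51, adjusted p = 3.6e-07, and 0.00117 scaled by labelled reads), beside the fall of its total reads. C430049B03Rik went from 175.1, 192.3 and 180.3 to 13.5, 27.1 and 13.7 at day 7 (−3.32 ± 0.43, adjusted p = 1.5e-08, and 0.00024 scaled by labelled reads). LOC106557447 had 31.1, 48.3 and 32 labelled reads at day −2 and 0 in all day 3 libraries (adjusted p = 7.3e-07), and Gm40346 had 40.1, 42 and 34.6 at day −2 and 4.6, 0 and 0.82 at day 1 (−4.36 ± 0.75, adjusted p = 1.3e-05).

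The 3 members with more labelled reads were H19, 9630013D21Rik and 5730408K05Rik. H19 had 0, 0 and 6.22 labelled reads at day −2 and 34, 8.2 and 51.1 at day 1 (adjusted p = 0.003565, lost without A at 0.0767). 9630013D21Rik had 3.27, 4.47 and 1.78 at day −2 and 40.6, 16.7 and 26.3 at day 7 (3.08, adjusted p = 0.001218, lost without A at 0.0651 and C at 0.0124). For both the rise went with a rise of total reads. 5730408K05Rik had 17.2, 33.1 and 14.2 at day −2 and 194.1, 230.5 and 25.1 at day 7 (2.80 ± 0.51, adjusted p = 1.8e-05), where replicate C lay within the day −2 range. A like value of 197.1 stood in replicate C of ML-792 at day −2.

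ML-792 changed the labelled reads of 5 members. None was called at day −2, where 0.0% and 0.0% of genes were, with 1 member at an unadjusted p under 0.05 by edgeR and 1 by DESeq2. At day 1 none was higher and 1 was lower (0.14% and 0.917% of all genes), at day 3 1 was higher and none lower (0.42% and 0.699%), and at day 7 1 was higher and 2 were lower (0.0777% and 0.886%). C430049B03Rik had 42.8, 39.6 and 42 labelled reads at day 1 against 161.8, 122.1 and 171.6 in DMSO (−1.87 ± 0.37, adjusted p = 0.001995, lost without A at 0.157 and C at 0.184), in the same direction as its total reads. The others were LOC106557447 at day 3 (14.1, 6.33 and 0 against 0, adjusted p = 0.0469, lost without any 1 letter), Gm5886 at day 7 (2.38, 11.6 and 6.83 against 0, adjusted p = 0.0730, lost without any 1 letter), 5730408K05Rik at day 7 (13.1, 21.9 and 17.8 against 194.1, 230.5 and 25.1, adjusted p = 0.0239, lost without A at 0.371 and B at 0.391 and scaled by labelled reads at 0.216) and LOC102633627 at day 7 (5.96, 1.29 and 1.37 against 21.4, 9.39 and 12.6, adjusted p = 0.0985, lost without any 1 letter and scaled by labelled reads at 0.246). Without all libraries of A, B or C the day 7 count of 3 became 0, 0 and 1, and the day 1 and day 3 counts became 0 without C. No member's call at any day held under all 3. The interaction of labelled reads called 1 member, 5730408K05Rik (adjusted p = 0.0365, lost without A at 0.672 and B at 0.613 and scaled by labelled reads at 0.295), where 0.28% of genes were called.

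The labelled share, labelled over total reads, is set by how fast an RNA is made relative to its amount, by its T content and by read errors, and it is given for genes with at least 1000 reads summed over a condition. At day −2 in DMSO its median was 3.11% over 58 members (quartiles 1.25 and 7.90) and 2.28% over 6569 coding genes. At days 1, 3 and 7 the medians were 1.65%, 0.930% and 1.03% for members and 0.995%, 0.765% and 0.812% for coding genes. Under ML-792 the 4 medians of members were 2.47%, 1.23%, 0.927% and 0.757%, each above that of coding genes (2.05%, 0.837%, 0.738% and 0.628%), although without replicate A the order turned at day 3 (0.692% against 0.724%) and day 7 (0.599% against 0.606%). With a minimum of 100 reads it turned at ML-792 day 7 with all libraries (0.680% against 0.682%). The highest shares at DMSO day −2 were those of Gm19327 with 24.7 ± 6.37% (SD, n = 3), Gt(ROSA)26Sor, the ubiquitously transcribed locus used for transgenes, with 21.9 ± 3.50%, F630048H11Rik with 21.3 ± 3.62%, Carmn with 19.7 ± 0.49% and 1810026B05Rik with 17.6 ± 1.40%. Neat1 had 12.7 ± 1.87% and Malat1 1.01 ± 0.11%, so the labelled share of these neighbouring nuclear lncRNAs differed by more than the spread between replicates, without a test. At day 1 the share of Neat1 was 2.64 ± 0.57% in DMSO and 1.61 ± 0.10% in ML-792.

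**Figure D5:**
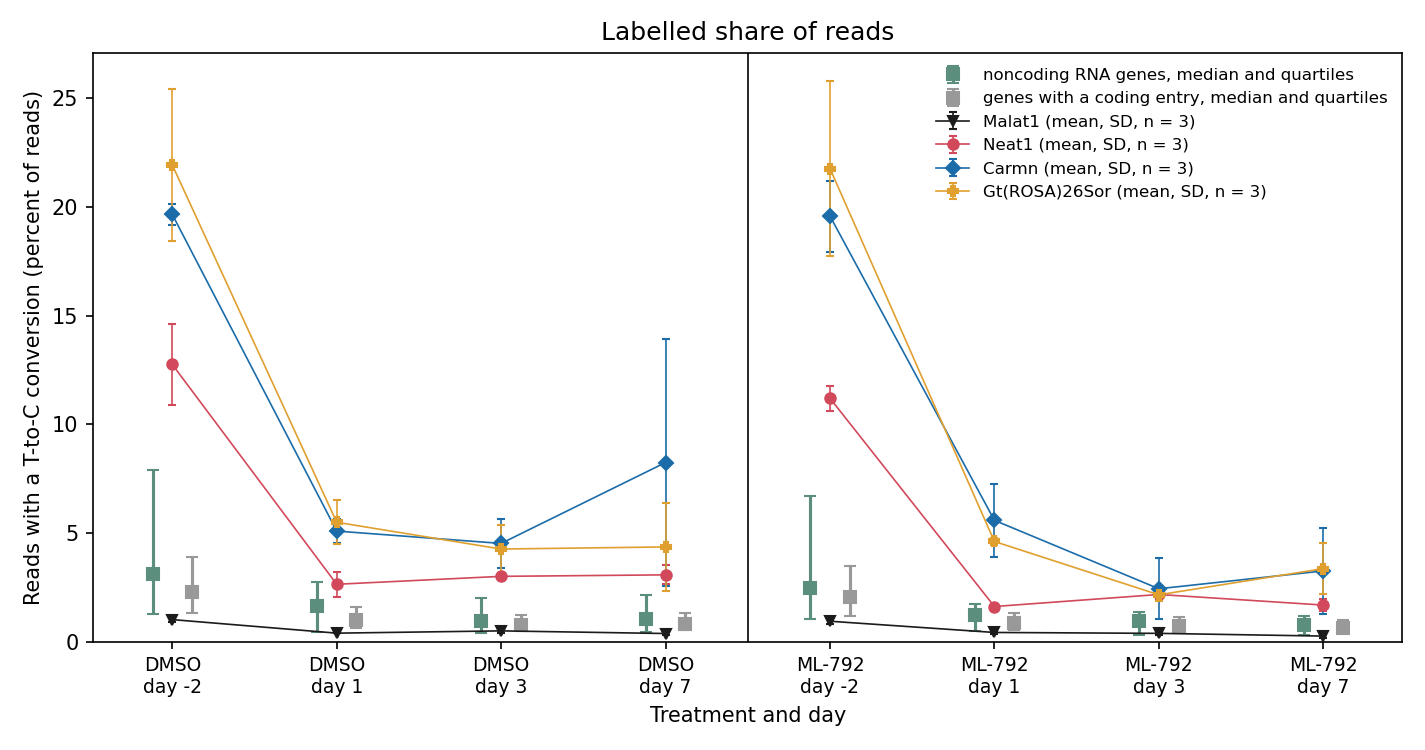
Labelled share in percent by condition, as the median with quartiles over noncoding and coding genes with at least 1000 reads, and as mean ± SD (n = 3) for Malat1, Neat1, Carmn and Gt(ROSA)26Sor. All shares are highest at day −2 (median 3.11% for noncoding genes in DMSO), and Neat1 drops from 12.7% to 2.64% at day 1 while Malat1 stays near or below 1%.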

How the data were processed

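QuantSeq 3′-end libraries of 4-thiouridine-labelled 3T3-L1 cells were sequenced as single reads. Per the methods and labels, the authors mapped reads to mm10 with SlamDunk v0.4.3 over RefSeq 3′ UTR coordinates and called reads with at least 1 T-to-C conversion labelled. bcl2fastq 2.17.1.14 and mm10 are in the submitters' processing notes. The deposited tables hold raw counts of total and labelled reads per entry, and 6 further library columns per table that belong to no sample listed here were not used. Reads carried no molecular identifiers that the sources name, so reads are not independent molecules. Standard errors and p-values come from the spread between libraries within conditions, pooled over the conditions of a fit and moderated over all entries kept.

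Counts were tested with edgeR 4.0.16 (robust quasi-likelihood, R 4.3.3), TMM factors of total counts and filterByExpr (minimum count 10, minimum total 15), which kept 26563 entries for total and 10589 for labelled reads. All 642 members were kept for total and 91 for labelled reads. P-values were adjusted (Benjamini-Hochberg) over all entries kept, and one entry per symbol was then counted. DMSO days were fitted over 12 libraries (adjusted p under 0.01) and ML-792 and the interaction over 24 (adjusted p under 0.1). Normalized counts are counts over library total times TMM factor, times 18300638. Log2 fold changes carry standard errors, taken as the absolute log2 fold change over the square root of the test's F value. Where 3 libraries were at 0, folds used a floor of 3 reads per library, which covers counting error only. DESeq2 1.42.0, a looser filter, 1 entry per symbol, a replicate block, other scaling, leaving out entries over 30% labelled, members clear of other entries and leaving out each replicate letter were alternatives. The fit was tested on simulated data.

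Genes to name were the listed noncoding RNAs, the 8 highest and 8 lowest called log2 fold changes without overlap at DMSO day 7, 5 and 5 in the other total and 3 and 3 in the labelled comparisons, the 5 highest mean counts and the 5 highest labelled shares. Members and lists were chosen with earlier results of these data known. Some host genes of snoRNAs are not reported here.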

Additional observations from a re-analysis of the deposited data

Results flagged for a closer look

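The difference between days in the effect of ML-792 was tested by the interaction of day and treatment (F-test in edgeR's fit of all 24 libraries), and these named genes passed an adjusted p under 0.1 for it in total reads. Under 0.001 were Gm5886 (1.3e-05), Dleu2 (0.00012), Snhg5 (0.00021) and Snora73b (0.00052). From there to 0.01 were C430049B03Rik (0.001639), Neat1 (0.002179), Snora68 (0.004679), Gm31378 (0.005571), Rpph1 (0.006228) and A830009L08Rik (0.008189). Next came 5730408K05Rik (0.01217), LOC102640468 (0.01257), Snhg10 (0.01634), Snora2b (0.02444), LOC108167447 (0.02993), Snora43 (0.03742), Snhg8 (0.03749) and Gm16630 (0.03773). The least certain were 2700069I18Rik (0.05232), Gm41610 (0.05691), LOC102636700 (0.0626), Snora75 (0.07644), Gm30021 (0.07788), LOC102640451 (0.07914), Gm39334 (0.08433), Snhg3 (0.08683), Snhg15 (0.09487), Gm34159 (0.09541) and Gm11627 (0.09808). In labelled reads 5730408K05Rik passed (0.03647). Only Dleu2, Gm5886 and Snora73b were also called with each replicate letter left out. Gm16630, which had not been described above, had 102.7, 97.7 and 92.3 normalized total reads in ML-792 at day 1 against 35.9, 56.5 and 54.4 in DMSO (not called), and 9.53, 15.4 and 26 against 3.39, 0 and 0 at day 7 (adjusted p = 0.005062, lost without C at 0.24). Snhg10 had 276.1, 252 and 265.6 in ML-792 at day 3 against 107.2, 154.2 and 119.2 in DMSO (log2 fold change 1.06 ± 0.24, adjusted p = 0.004284, lost without A at 0.173 and C at 0.106), with overlapping groups at day 1. Groups of 3 libraries are too small for a test of single outlying libraries.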

How the results depend on the processing

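No named call changed direction under any alternative run: of 1594 values for 216 called fold changes, 1322 stayed called and 272 did not, with 104 of these without replicate A, 30 without B and 95 without C, 29 of 41 labelled ones on the scale of labelled reads, 10 under the looser filter and 4 by DESeq2. Under every alternative 78 fold changes were called. Of 176 counts and medians under alternatives, 120 stayed within 1.5 times the reported count or within the replicate spread. In total reads, leaving out 1 letter (2 against 2 libraries) gave 7 to 66 called members at DMSO day 1 (57 reported), 87 to 169 at day 3 (165), 81 to 162 at day 7 (167), 12 to 38 for ML-792 at day 1 (43), 28 to 88 at day 3 (71), 11 to 84 at day 7 (60) and 4 to 56 for the interaction (43). In labelled reads it gave 9 to 21, 15 to 29 and 15 to 27 in DMSO (21, 31 and 29), 0 to 1 for ML-792 at days 1, 3 and 7 (1, 1 and 3) and 0 to 1 for the interaction (1). DESeq2 called 102 members at DMSO day 1, 66 for ML-792 at day 1 and 84 for the interaction in total reads, and 4 and 5 for ML-792 at day 1 and the interaction in labelled reads. The looser filter gave 1, 2 and 2 for labelled reads under ML-792 at days −2, 1 and 3 and 2 for the interaction. Members clear of other entries gave 0 for ML-792 at days 1 and 3 and the interaction in labelled reads. Scaling by labelled reads gave 4, 9 and 10 at DMSO days 1, 3 and 7, and 3 and 1 for ML-792 at days 1 and 7. Same-letter libraries deviated together with a mean correlation of 0.213 in total reads (above 0.1 in 70 of 84 pairs, lowest −0.122), against −0.104 for different letters (above 0.1 in 24 of 168). Since not every pair was above 0.1 and the labels name no shared culture or day, the block was kept as an alternative, and whether the letters mark one is unknown. With the letter as a replicate block, total calls were 92 at DMSO day 1, 85 and 99 for ML-792 at days 1 and 7 and 91 for the interaction, and labelled calls 4 for ML-792 at day 1 and 3 for the interaction. The other counts moved by less than 1.5 times under the block. The median labelled share of members in DMSO was 2.71 to 2.98% at day −2 and 1.44 to 1.60% at day 1 without 1 letter, and in ML-792 0.959 to 1.19% at day 1 and 0.692 to 0.951% at day 3. A minimum of 100 reads gave 3.81% and 1.37% at DMSO days −2 and 1 and 3.48% at ML-792 day −2. The causes of these shifts were not tested. A mean under 100 reads was found for 500 of 642 members, and 91 had enough labelled reads to be tested.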
